A study of Mus musculus with 6 samples.

Results

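The lysyl oxidases, lysyl hydroxylases and prolyl 4-hydroxylase alpha subunits that modify and crosslink collagen were examined in mouse cortical bone treated with parathyroid hormone (PTH). They were taken as every array probe whose gene symbol was *Lox*, *Loxl1*, *Loxl2*, *Loxl3*, *Loxl4*, *Plod1*, *Plod2*, *Plod3*, *P4ha1* or *P4ha2*, which gave 19 of the 45281 probes and 10 of the 31508 gene symbols on the array. All bones came from C57BL6 mice aged 3 months. Tibiae and femurs were flushed of marrow and digested with collagenase and trypsin to remove surface cells, which leaves osteocytes in their matrix, and after a night in serum these bone tubes were cultured for 24 hours either untreated (control) or with 250 nM PTH 1-34. Bones of several mice were pooled for an RNA preparation, and 3 control and 3 PTH samples were hybridized to Illumina bead arrays. No source says whether the samples of a group came from separate cultures, so p-values measure the spread between these arrays, which may be technical. Because RNA was taken from whole bone tubes, fewer cells of a type and less RNA per cell cannot be told apart in any of the values that follow.

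Collagen is modified while its chains are still in the endoplasmic reticulum. Prolyl 4-hydroxylase, whose catalytic alpha subunits are encoded by *P4ha1* and *P4ha2*, hydroxylates prolines and so stabilizes the triple helix. Lysyl hydroxylases, encoded by the *Plod* genes, hydroxylate lysines in the helix (*Plod1*) and in the telopeptides (*Plod2*), and *Plod3* encodes an enzyme that also adds sugars to hydroxylysine. After secretion, the copper-dependent lysyl oxidases convert lysines and hydroxylysines to the aldehydes from which crosslinks form. In bone these enzymes set how stable and how tightly crosslinked the type I collagen matrix is. PTH acts on bone cells through a receptor that raises cAMP.

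Median signal lay between 111 and 129 on the 6 arrays, and between 15504 and 17374 probes were above background, taken as a detection p under 0.05. PTH replicate 3 was the brightest array, with a mean signal of 429 against 298 to 349 on the others. Signals are therefore given after background correction and quantile normalization, as normalized log2 signal, on which a difference of 1 is a doubling. Levels of different probes are not comparable. The osteocyte label was checked against marker genes. Of 8 osteocyte markers on the array 7 were above background on 3 or more arrays, including *Dmp1*, *Mepe* and *Phex*, while *Fgf23* was above background on none. *Sost* was above background on 4 of the 6 arrays. Of 8 skeletal muscle markers 6 were above background on no array. Of 8 osteoblast markers 7 were above background on 3 or more arrays, as were all 6 endothelial and all 7 macrophage markers. Detection therefore does not set osteocytes apart from these cells. Markers of red cells and of neutrophils and other myeloid cells were also detected, with lower sums under PTH. The summed normalized signal of 7 red cell markers was between 8682 and 10119 on the control arrays against 2463 to 2721 with PTH, and that of 8 neutrophil and myeloid markers between 53084 and 53959 against 34233 to 38810, with 3 and 7 of them above background on at least 3 arrays. The sum of 7 osteoclast markers was higher with PTH, at 16165 to 20680 against 11927 to 13409, with *Calcr* and *Atp6v0d2* above background on no array. The part of these cells in the values of the enzymes was not tested.

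Of the 10 genes, 9 had a probe above background on at least 3 arrays and could be tested, with 14 probes in all. No member was called higher or lower with PTH, a call being an adjusted p under 0.05 (limma, Benjamini-Hochberg over 16214 probes) with a fold change of at least 1.5. Among all 11979 genes tested, 0.685% (82 genes) were called higher and 1.04% (125 genes) lower, a split that became 62 higher and 41 lower when arrays were scaled to one median instead. At an unadjusted p under 0.05 there were 2 member genes, *Loxl2* above and *Lox* below control, where 14.9% of all genes reached that level. The same 2 genes were the members whose groups did not overlap, 1 with every PTH array above and 1 with every PTH array below, against 11.1% and 10.8% of all genes. With 1 member gene in each direction, these counts are near the background. Taking each gene by its brightest tested probe, 3 members had a higher mean with PTH and 6 a lower one. The median log2 fold change of the 9 genes was -0.061, beside 0.0053 for all genes tested. The median size of the change, whatever its direction, was 0.068 for the members and 0.16 for all genes. The members were not matched to all genes by signal level, so these sizes are a description only.

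**Figure D1:**
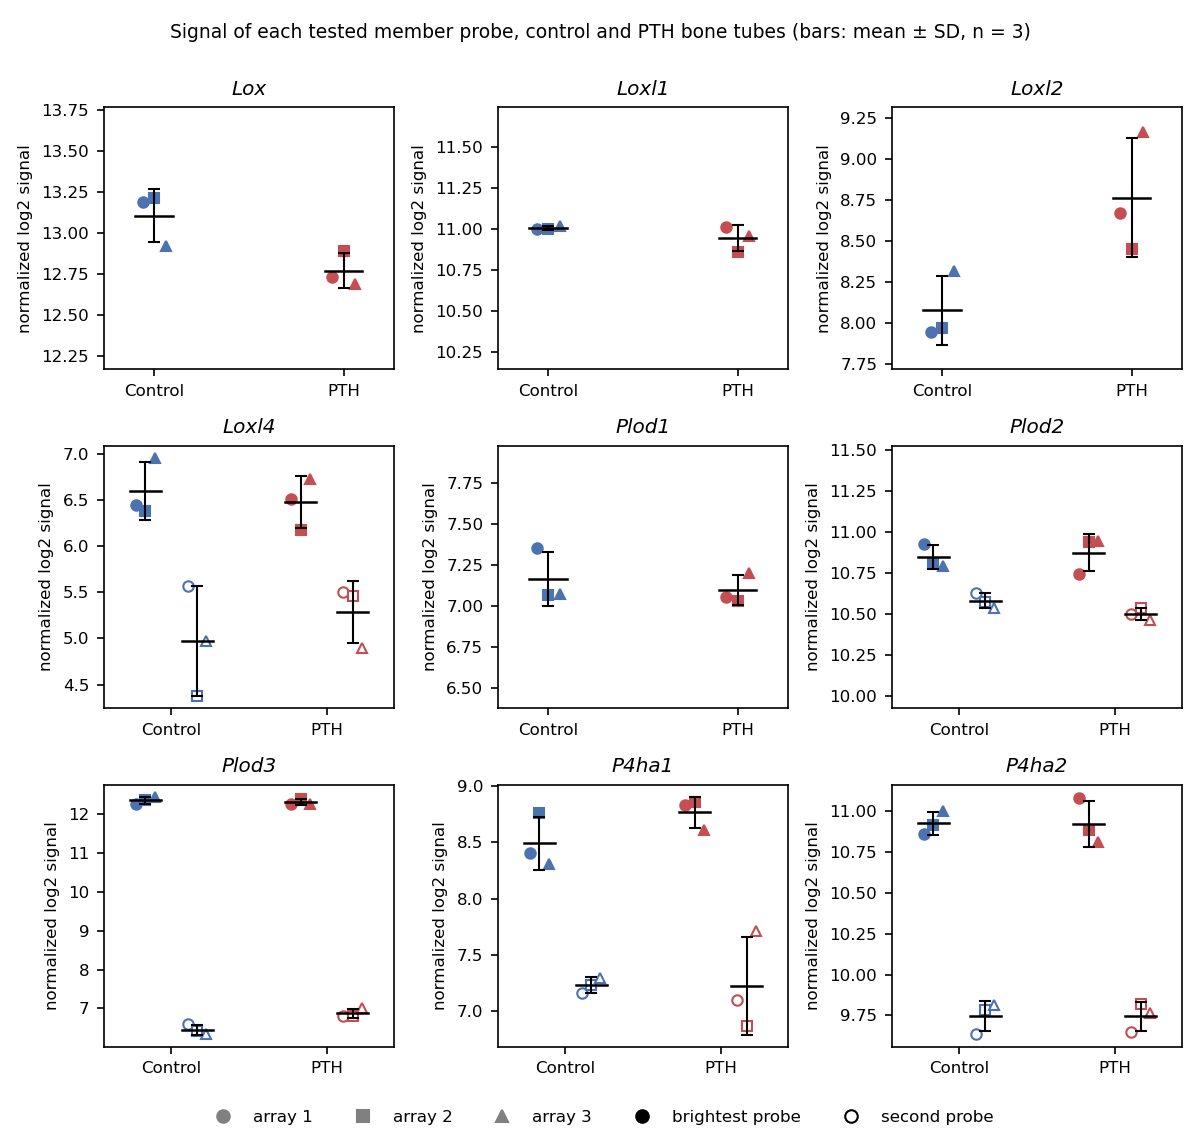
Normalized log2 signal (vertical axis, scale differing between panels) of the 14 tested probes on the 3 control (blue) and 3 PTH (red) arrays, with bars for mean ± SD. Filled symbols are the brightest probe of a gene and open symbols its second probe; the groups are apart for *Lox* and *Loxl2* and for the second probes of *Plod3* and, by a margin smaller than the symbols, *Plod2*.

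*Lox* encodes the founding lysyl oxidase, which crosslinks fibrillar collagen and elastin, and was measured by 1 probe. Its normalized log2 signal was 13.19, 13.21 and 12.92 in control and 12.73, 12.89 and 12.69 with PTH. The groups did not overlap, though the lowest control and the highest PTH array nearly met. The log2 fold change was -0.34 (SE 0.14, 95% interval -0.65 to -0.019), and it did not pass (limma adjusted p = 0.311). Before normalization the signal was 7598, 9358 and 7600 in control and 5793, 7873 and 9220 with PTH, and the groups overlapped. Scaling the arrays to one median in place of quantiles gave a log2 fold change of -0.17.

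*Loxl2* encodes a lysyl oxidase that acts on basement membrane collagen among other substrates, and its bright probe showed the largest difference of the 14 tested. The control arrays read 7.94, 7.97 and 8.32 and the PTH arrays 8.67, 8.45 and 9.17 in normalized log2 signal. The groups did not overlap, and PTH replicate 3 was the highest of all. The means were 8.08 ± 0.21 (SD, n = 3) and 8.76 ± 0.36 (SD, n = 3), a 1.61-fold difference (95% interval 1.16 to 2.24). It did not pass over all probes tested (log2 fold change 0.69, SE 0.21, limma adjusted p = 0.176). Quantile normalization without background correction gave a smaller log2 fold change of 0.54 with an adjusted p of 0.0173 (limma), which is under the threshold, although the change was then below 1.5-fold. The second *Loxl2* probe was above background on no array. RefSeq (GRCm38.p6) lists Loxl2 both as a current symbol and as an older name of *Loxl3*, and probe sequences were not used here to tell them apart.

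Over the 6 arrays, the genes whose signals moved most like that of *Loxl2*, by the root mean square difference of log2 signals centred on each gene, were mtDNA_ND4L (0.046), LOC214738 (0.07) and *Txn1* (0.096), out of 11978 compared. Like *Loxl2*, each had its highest control value on replicate 3 and its highest PTH value on replicate 3. None of them passed, with log2 fold changes of 0.62 for mtDNA_ND4L, 0.60 for LOC214738 and 0.57 for *Txn1*.

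The remaining lysyl oxidases differed little between the groups. *Loxl1*, whose product is known for elastin, averaged 11.01 ± 0.01 (SD, n = 3) in control and 10.95 ± 0.08 (SD, n = 3) with PTH. Its log2 fold change was -0.061 (95% interval -0.33 to 0.21, limma adjusted p = 0.863). *Loxl4* was dim, at 6.59 ± 0.31 (SD, n = 3) in control and 6.47 ± 0.28 (SD, n = 3) with PTH, and its 95% interval of -0.60 to 0.36 leaves a larger difference possible. Its second probe was above background on 1 control and 2 PTH arrays and differed by 0.32 (95% interval -0.39 to 1.02), by 0.021 without control replicate 2 and by 0.63 without control replicate 1. *Loxl3* was above background on PTH replicate 3 alone, with a signal of 150, and on no control array, so it was not tested.

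Among the lysyl hydroxylases, the means of *Plod1* and *Plod2* were close between control and PTH. *Plod1*, the helical lysyl hydroxylase, averaged 7.16 ± 0.16 (SD, n = 3) in control and 7.10 ± 0.09 (SD, n = 3) under PTH on the log2 scale, which differ by -0.068 (95% interval -0.38 to 0.25). *Plod2*, the telopeptide lysyl hydroxylase, was measured by a pair of bright probes with differences of 0.029 (95% interval -0.26 to 0.32) and -0.081 (95% interval -0.34 to 0.18). The intervals of both *Plod2* probes lie within a 1.5-fold change in either direction. A further *Plod2* probe was above background on control replicate 2 only and was not tested.

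*Plod3* was measured by a bright and a dim probe, whose values differed in direction. The bright probe read 12.26, 12.36 and 12.43 in control and 12.25, 12.38 and 12.24 with PTH, and the groups overlapped, with a log2 fold change of -0.061 (95% interval -0.34 to 0.22). The dim probe read 6.59, 6.41 and 6.34 in control and 6.80, 6.81 and 7.01 with PTH, and the groups were apart. The dim probe differed by 0.43 (95% interval 0.12 to 0.73) and did not pass (limma adjusted p = 0.193). Which transcripts the probes detect was not examined here.

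*P4ha1* encodes the more widespread of the prolyl 4-hydroxylase alpha subunits. Its brightest probe read 8.41, 8.76 and 8.31 in control and 8.84, 8.86 and 8.61 with PTH, and the groups overlapped through control replicate 2. The log2 fold change was 0.28 (SE 0.16, 95% interval -0.09 to 0.65, limma adjusted p = 0.484). The second *P4ha1* probe differed by -0.0049, with 7.71 on PTH replicate 3 and between 6.86 and 7.29 on the other 5 arrays. *P4ha2* encodes an alpha subunit prominent in skeletal cells, and its means were alike to the second decimal, at 10.92 ± 0.07 (SD, n = 3) and 10.92 ± 0.14 (SD, n = 3). The 95% interval of its difference was -0.30 to 0.30 on the brightest probe and -0.28 to 0.28 on the second. The remaining *P4ha2* probe and the second *Loxl1* probe were above background on no array.

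**Figure D2:**
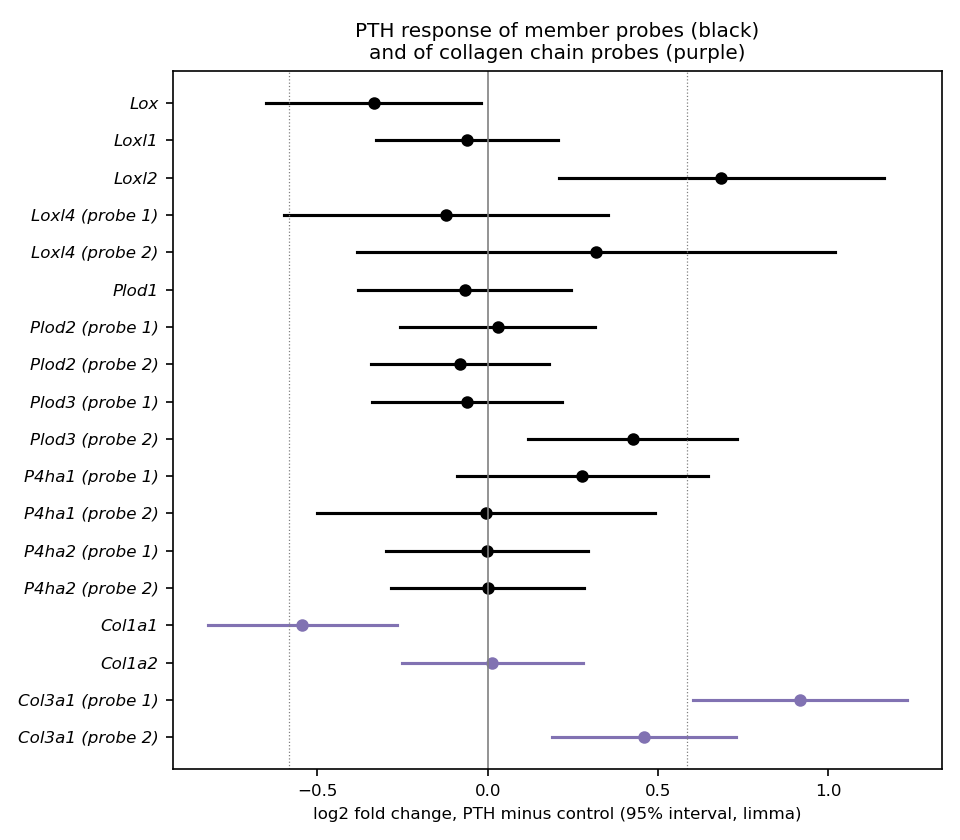
Log2 fold change, PTH minus control (horizontal axis), with its 95% interval from limma for each tested member probe (black) and for probes of 3 collagen chains (purple); dotted lines mark 1.5-fold. Among members only the intervals of *Lox*, *Loxl2* and the second *Plod3* probe exclude 0, without adjustment for multiple tests, and the largest value in the plot is that of *Col3a1*.

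For the 5 member genes *Loxl1*, *Plod1*, *Plod2*, *Plod3* and *P4ha2* the 95% interval of the brightest probe lay within 1.5-fold in both directions. For *Lox*, *Loxl2*, *Loxl4* and *P4ha1* it reached beyond 1.5-fold in at least 1 direction. For these a change of that size was neither called nor bounded by the 6 arrays. The interval of the dim *Plod3* probe, 0.12 to 0.73 in log2, also reached beyond 1.5-fold. For *Plod3* the bound therefore holds for the bright probe alone. All 5 bounds rest on the quantile-normalized signal. With the arrays scaled to one median, the SE of each of the same 5 probes was 0.29, and the bounds were lost.

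The promoters of the prolyl 4-hydroxylase subunits are shown because hydroxylase genes are known targets of the hypoxia response and PTH signals through cAMP. Of the 10 members 5 matched the RefSeq promoter table (GRCm38.p6), namely *Loxl4*, *Plod1*, *Plod3*, *P4ha1* and *P4ha2*. Windows of 300 bases around the transcription start were searched on both strands for TGACGTCA (the cAMP response element), TGACG (its short form, contained in it) and ACGTG (the core bound in the hypoxia response, which can overlap TGACG). Capitals mark any of these. The *P4ha1* window is chr10:59323046-59323345 and the *P4ha2* window chr11:54100674-54100973, both on the + strand and read 5′ to 3′.
P4ha1: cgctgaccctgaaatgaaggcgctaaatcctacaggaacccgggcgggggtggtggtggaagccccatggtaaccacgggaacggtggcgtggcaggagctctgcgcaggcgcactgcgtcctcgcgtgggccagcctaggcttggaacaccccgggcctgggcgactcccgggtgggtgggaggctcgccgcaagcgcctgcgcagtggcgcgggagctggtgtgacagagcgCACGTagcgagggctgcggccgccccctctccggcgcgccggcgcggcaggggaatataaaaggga
P4ha2: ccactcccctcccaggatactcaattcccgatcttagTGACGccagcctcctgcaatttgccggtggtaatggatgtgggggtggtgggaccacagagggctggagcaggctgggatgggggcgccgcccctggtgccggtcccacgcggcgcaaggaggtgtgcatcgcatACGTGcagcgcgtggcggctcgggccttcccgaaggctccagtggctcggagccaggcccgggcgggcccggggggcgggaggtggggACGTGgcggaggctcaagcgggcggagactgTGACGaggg

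The *P4ha1* window held ACGTG 1 time, on the opposite strand, and the *P4ha2* window held it 2 times, together with TGACG 2 times. ACGTG was also in the *Plod3* window, TGACG in that of *Loxl4*, and TGACGTCA in none of the 5. Of all 32851 promoter windows, 19.6% held ACGTG, 20.8% TGACG and 1.79% TGACGTCA. A match describes the sequence only, and none of the genes with a window was called.

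The collagen substrates of these enzymes gave values in both directions. *Col3a1*, the chain of type III collagen, read 9.68, 9.53 and 9.73 in control and 10.43, 10.54 and 10.74 with PTH in normalized log2 signal. It rose 1.89-fold with PTH (log2 fold change 0.92, SE 0.14, limma adjusted p = 0.0211), with no overlap of the groups. Its second probe differed by 0.46 with the groups apart and did not pass (limma adjusted p = 0.119). When any single array was dropped, the adjusted p of *Col3a1* (limma) was between 0.0525 and 0.0995, above the threshold in all 6 fits, while the log2 fold change stayed between 0.84 and 0.99.

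*Col1a1*, the main chain of type I collagen in bone, read 13.55, 13.61 and 13.66 in control and 13.00, 13.02 and 13.17 with PTH. The groups were apart, and the difference of -0.54 (95% interval -0.82 to -0.27) did not pass (limma adjusted p = 0.0798). The other chain of type I collagen, *Col1a2*, differed by 0.014 (95% interval -0.25 to 0.28), with the groups overlapping. The summed signal of 8 fibroblast and periosteum markers, a list that holds *Col3a1*, was between 2639 and 2858 on the control arrays and between 4373 and 4948 on the PTH arrays. In that list 6 of the 8 were above background on 3 or more arrays, and *Dpt* and *Pi16* on none. Bright genes weigh most in such a sum. Mean log2 signal was higher with PTH for *Col3a1*, *Dcn* and *Pdgfra*. It was lower for *Thy1* (6.76 in control, 6.44 with PTH) and *Cd34* (5.75 and 5.70), and *Postn* read 4.94 and 4.98. The summed signal of 8 osteoblast markers, a list that holds *Col1a1*, was between 55363 and 60397 in control and between 45306 and 48193 with PTH. Of those 8 markers, 7 were above background on 3 or more arrays and *Runx2* on none. The part of these lists in the collagen values was not tested.

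Whether the enzymes kept pace with type I collagen was examined by the log2 ratio of each enzyme to *Col1a1* on the same array. The ratio was higher with PTH for all 9 enzymes, by 0.21 for *Lox*, 0.42 for *Loxl4*, 0.48 for *Loxl1*, *Plod1* and *Plod3*, 0.54 for *P4ha2*, 0.57 for *Plod2*, 0.82 for *P4ha1* and 1.23 for *Loxl2*. Without control replicate 3 the *Lox* ratio was higher by 0.095, and without PTH replicate 2 by 0.12, while for the other 8 no left-out array moved the difference by as much as 1.5 times. For 7 of the 9, all but *Lox* and *Loxl4*, the PTH arrays were all above the control arrays. Those 7 reached p = 0.1 in a two-sided exact permutation test over the 6 arrays, the smallest p this design allows, and 0.171 after Benjamini-Hochberg adjustment over 12 ratios. The 9 ratios share *Col1a1*, whose own groups were apart, so they are not separate pieces of evidence. With *Col1a2* in its place, a choice made after seeing the data, only the *Loxl2* ratio had groups apart, at 0.67 (exact permutation p = 0.1), and for 6 of the 9 enzymes the ratio was lower with PTH.

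**Figure D3:**
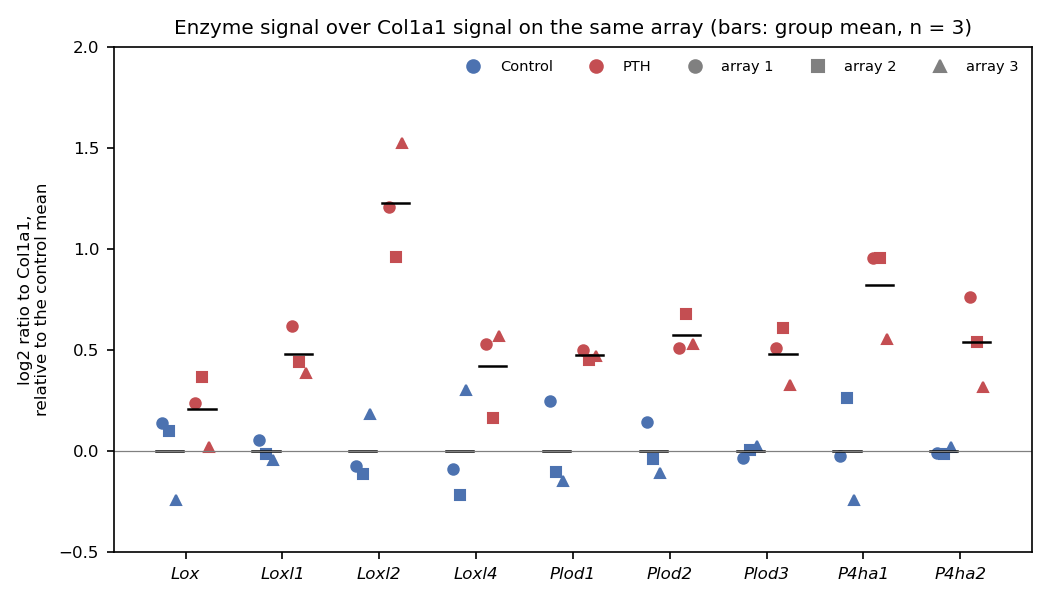
Log2 ratio of each enzyme's signal to that of *Col1a1* on the same array (vertical axis), set to 0 at the control mean, for the 3 control (blue) and 3 PTH (red) arrays, with bars at group means. PTH arrays lie above all control arrays for 7 enzymes, by a mean of 0.48 to 1.23, and overlap them for *Lox* and *Loxl4*.

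Ratios were also taken between members of one family. The ratio of *Plod2* to *Plod1*, of the telopeptide to the helical enzyme, was higher with PTH by 0.097 (exact permutation p = 0.5), and by 0.033 without PTH replicate 2 or 0.045 without control replicate 1. The ratio of *P4ha1* to *P4ha2* was higher by 0.28 (exact permutation p = 0.3), and by 0.15 without control replicate 3 or 0.42 without control replicate 2. That of *Lox* to *Loxl1* was lower by a log2 difference of -0.27 (exact permutation p = 0.2). In all 3 ratios the groups overlapped.

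Among the proteins that work beside the hydroxylases in the endoplasmic reticulum, 12 of 15 listed genes could be tested and none was called, with 1 at an unadjusted p under 0.05 (14.9% of all genes). The median log2 fold change was -0.18, with 9 genes lower and 3 higher in mean. In 4 of the 12 all PTH arrays were below the control arrays, against 10.8% of all genes. *Serpinh1*, which encodes the collagen chaperone Hsp47, differed by -0.32 (limma adjusted p = 0.277). *P4hb*, the beta subunit that completes prolyl 4-hydroxylase, differed by -0.23 (limma adjusted p = 0.403).

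Of 12 genes that process procollagen or lysyl oxidase or dock the latter in the matrix, 8 were tested and none was called, with 3 at an unadjusted p under 0.05 (14.9% of all genes). Their median log2 fold change was 0.038, and they spread from -0.87 to 0.59. *Pcolce2*, an enhancer of procollagen processing, differed by 0.59 with every PTH array above every control array (limma adjusted p = 0.0766). *Fmod*, which encodes the collagen-binding proteoglycan fibromodulin, differed by -0.87 with every PTH array below (limma adjusted p = 0.11). When probes were required to have a detection p under 0.01 on all 6 arrays, both passed, with limma adjusted p-values of 0.0278 for *Pcolce2* and 0.0477 for *Fmod*.

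Of the 6 fibrillar substrates, 5 were tested and *Col3a1* alone was called, with a median log2 fold change of 0.053 over the list. Of 9 genes for copper and ascorbate supply, the cofactors of lysyl oxidase and of the hydroxylases, 6 were tested. None was called, with 0 at an unadjusted p under 0.05 (14.9% of all genes). Their median was -0.041, and the smallest p-values belonged to the copper transporters *Atp7a*, at 0.22 (limma adjusted p = 0.595), and *Slc31a2*, at 0.37 (limma adjusted p = 0.627).

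Of 18 hypoxia-responsive genes 13 were tested and none was called, with a median of 0.08. An unadjusted p under 0.05 was reached by 2 (14.9% of all genes). *Vegfa*, the angiogenic growth factor, differed by 0.42 (limma adjusted p = 0.223) and *Egln3*, a prolyl hydroxylase that marks HIF for degradation, by -0.34 (limma adjusted p = 0.266), in opposite directions. Of 11 TGF-beta response genes 8 were tested and none was called, with a median of -0.17. An unadjusted p under 0.05 was reached by 1 (14.9% of all genes). *Tgfb1* differed by -0.37, all PTH arrays being below the control arrays (limma adjusted p = 0.248). *Ltbp2*, a latent TGF-beta binding protein, differed by -0.62 (limma adjusted p = 0.368) and was above background on 3 of the 6 arrays.

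**Figure D4:**
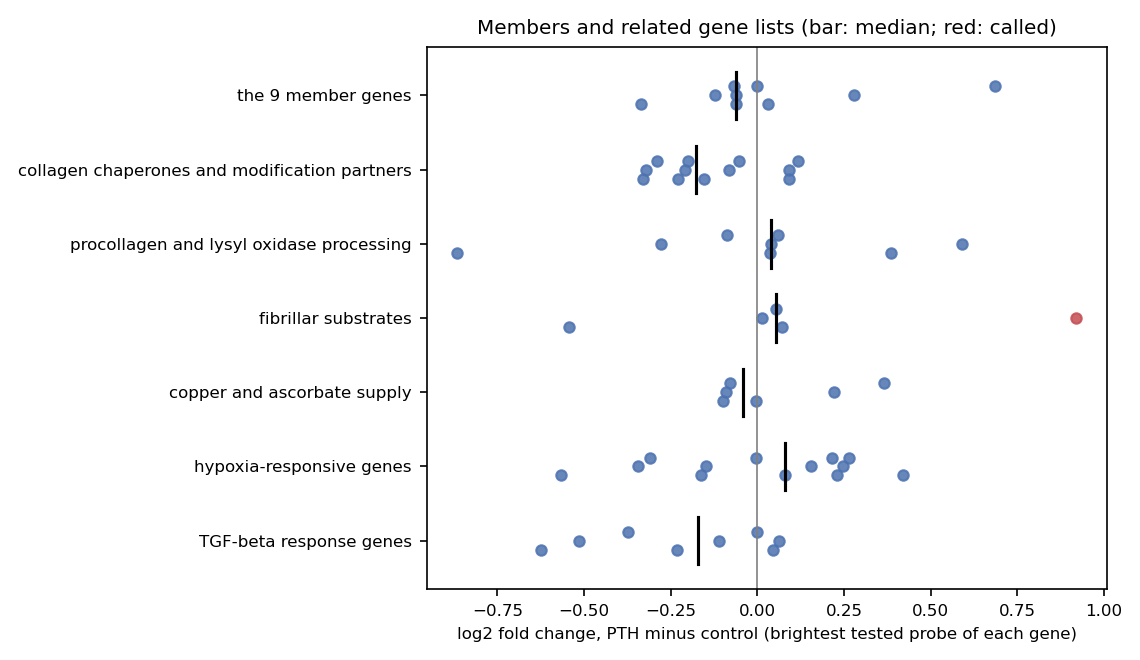
Log2 fold change, PTH minus control (horizontal axis), of the brightest tested probe of each gene for the 9 tested members and for 6 lists of related genes, with a bar at each median and called genes in red. The only called gene is *Col3a1*, at 0.92, and list medians lie between -0.18 and 0.08.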

How the data were processed

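The authors hybridized biotinylated cRNA to Illumina mouse v6 arrays and exported the data with Genome Studio. They deposited linear signal intensity for each probe, neither normalized nor background subtracted, and beside it a detection p-value against negative controls. All per-sample columns were used. The Genome Studio score named in the methods was not rebuilt, and limma took its place.

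Signals were background corrected through the detection p-values, given an offset of 16, quantile normalized and taken to log2 (neqc, limma 3.58.1, R 4.3.3). Probes with a detection p under 0.05 on at least 3 of 6 arrays were tested with lmFit and eBayes, and p-values were adjusted by Benjamini-Hochberg across this whole set. Each gene was represented by its brightest tested probe. The procedure was tested on simulated data. The number of arrays, 3 per group, limits the precision. No slide was named in the sources used here.

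The members, gene lists and tests were chosen with earlier results of these data known. Genes were named as all members, *Col1a1*, called genes of each related list or else the 2 with the smallest p, and the 3 most like the member with the smallest adjusted p. *Col1a2* was named after its values were seen. The alternatives changed the background correction, scaling, detection filter, test, call rule and probe, used the replicate number as a block, and left out each array in turn. Of the marker lists, the range of summed normalized signal not given above (control, then PTH) was 13249 to 14273 and 12237 to 13058 for osteocyte markers, 923 to 1206 and 682 to 804 for tendon, 1017 to 1037 and 1065 to 1096 for cartilage, 1310 to 1511 and 1312 to 1367 for endothelium, 6194 to 6347 and 5021 to 5356 for macrophage, 196 to 258 and 154 to 179 for fat, 156 to 211 and 175 to 246 for B lymphocyte, 283 to 313 and 334 to 359 for mast cell and 214 to 230 and 211 to 216 for skeletal muscle markers.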

Additional observations from a re-analysis of the deposited data

How the results depend on the processing

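No member gene was called under any of the 9 other settings of background correction, scaling, filter, block or test that kept all arrays, with any array left out, with no minimum fold change or by the probe with the smallest p. At an unadjusted p under 0.05 with 1.5-fold, 1 was (*Loxl2*). Labels of control and PTH arrays share replicate numbers, but deviations of same-numbered arrays correlated at 0.067, 0.064 and 0.27. The main fit therefore did not take the numbers as pairs. PTH replicate 3 was most like control replicate 3, while PTH replicates 1 and 2 were most like control replicates 2 and 1. Probes above background rose with the replicate number in both groups, from 15758 to 17369 in control and from 15504 to 17374 with PTH. An effect shared by same-numbered arrays was not tested apart from the block. With the replicate block 0 members were called and *Loxl2* had a limma adjusted p of 0.114, while 44 genes in all were called against 207. A Student's t-test on the normalized signal, which is not the authors' array score, called 68 genes. Fits that left out 1 array called 48 to 78. With 1 array left out, *Loxl2* ranged from 0.49 to 0.84 and *Lox* from -0.42 to -0.28 (log2 fold change). Median scaling raised the median of all genes to 0.12, called 103 genes and turned the sign of *Loxl1* (0.093), *P4ha1* probe 2 (0.094), *P4ha2* (0.15), *Plod1* (0.032), *Plod2* probe 2 (0.063) and *Plod3* (0.13), of which *Loxl1*, *P4ha1*, *Plod1* and *Plod2* stay below that shift. *Lox* was then -0.17. *P4ha1* probe 2 also turned without background correction (0.0072) and with an offset of 50 (0.0024), and *P4ha2* probe 2 without background correction (-3.6e-06). With 1 array left out the sign was not fixed for *Loxl4* (-0.25 to 0.057), *P4ha1* probe 2 (-0.25 to 0.18), *P4ha2* (-0.079 to 0.056) and its probe 2 (-0.052 to 0.049), *Plod1* (-0.12 to 0.027) and *Plod2* (-0.0063 to 0.094). With *Col1a2* as the substrate the ratios turned to -0.35 for *Lox*, -0.075 for *Loxl1*, -0.14 for *Loxl4*, -0.082 for *Plod1*, -0.075 for *Plod3* and -0.016 for *P4ha2*.

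The call of *Col3a1* was lost, leaving 0 fibrillar substrates, with the replicate block (limma adjusted p = 0.0661), by the Student's t-test, and with any array left out (0 to 0). The processing list had 1 call with quantile normalization alone, 1 with an offset of 50 and 2 with the strict detection filter, where fewer genes (8676) were tested. The causes of the other changes were not tested. Probes near the background, such as those of *Loxl3* and *Loxl4*, limit what can be said of these genes.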
